A study of Mus musculus with 16 samples.

Results

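The genes examined here are 7 markers of lymphatic endothelium, *Prox1*, *Tbx1*, *Lyve1*, *Pdpn*, *Mmrn1*, *Reln* and *Ccl21a*, taken by gene name from the 55414 genes counted in mouse lung endothelial cells (MLECs). All 7 were found once in the table, and all 7 had enough counts to be among the 15693 genes tested. RNA sequencing was done on MLECs of 4 isolations, and every isolation gave 4 libraries, 16 in all. The 4 groups, with 4 libraries each, were Ctrl cells with PBS, Ctrl cells with sENG(M):BMP9, KO cells with PBS and KO cells with pro:BMP9.

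All cells came from Eng fl/fl mice with Rosa26-CreERT2, which is expressed widely and not only in endothelium, and with the Immorto transgene, which conditionally immortalises cells, on a C57BL/6 background. Cells were captured from lung with beads against CD31 and then ICAM2, expanded with interferon-γ and the ALK5 inhibitor SB431542, moved to medium without both, and serum-starved before treatment. KO cells were made in culture with 4-OH-tamoxifen, and Ctrl cells, which the labels call wild type, are the same isolations given vehicle, so loss of *Eng* and tamoxifen cannot be told apart. sENG(M):BMP9 is BMP9 in complex with monomeric soluble endoglin and pro:BMP9 is BMP9 bound to its prodomain. Each was given at 0.2 ng/ml of growth factor domain for 90 min. The form of the ligand goes with the genotype, and these too cannot be told apart. The number of mice behind an isolation and their ages are not given in the sources used here.

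Lymphatic vessels return tissue fluid and immune cells to the blood. Their endothelium derives largely from veins, where the transcription factor PROX1 starts and maintains the lymphatic programme. Initial lymphatics carry the hyaluronan receptor LYVE1 and the chemokine CCL21, which guides dendritic cells into the vessel, and collecting vessels lose much of both. BMP9 signals through the receptor ALK1 and the co-receptor endoglin, and is known to restrain the lymphatic programme in cultured endothelium. Lung blood capillaries can carry single markers of this set, so that the markers are read together.

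Library totals lay between 14869115 and 17242117 counts. *Eng* in KO cells stood at 8.51 to 14.5% of its level in Ctrl cells of the same isolation in PBS and at 16.7 to 23.3% with ligand. The endothelial list was detected throughout (13 of 13 genes tested), with summed levels of 849 to 1903 CPM per kilobase of gene length (CPM, read counts scaled to a common library total). Of the 9 macrophage and leukocyte markers, 5 were tested, with no library at 0: *Cd68* (460 to 630 counts), *Cd14* (191 to 1443), *Lyz2* (48 to 233), *Csf1r* (16 to 92) and *Fcer1g* (5 to 33). The other 4 were near 0, with at most 5 counts of *Ptprc* and *Itgam* and at most 6 of *Adgre1* and *Tyrobp* in any library. Of the 9 alveolar epithelial markers, 5 were tested, *Krt18* (781 to 2808 counts), *Krt8* (26 to 756), *Hopx* (91 to 216), *Ager* (24 to 54) and *Cdh1* (0 to 62). Of the rest, *Sftpc* was at 0 in all 16 libraries, and *Nkx2-1* had at most 1 count, *Sftpb* 2 and *Epcam* 4. Fibroblast and mural markers (12 of 12 tested) and mesothelial markers (6 of 6 tested) were present and differed greatly between isolations, as given below beside the genes they moved with.

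The 7 genes did not behave as one block. *Lyve1* was among the most abundant transcripts of these cells in every isolation, whereas *Prox1*, *Pdpn* and *Reln* were high in isolations 1 and 2 and low in isolations 3 and 4, *Mmrn1* was highest in isolation 1 and nearly absent from isolations 2 and 4, and *Ccl21a* was close to the limit of detection throughout. By the main test (edgeR with isolation as a block), none of the 7 was called with ligand or with loss of *Eng* at an adjusted p under 0.05. *Tbx1*, *Prox1*, *Lyve1* and *Reln* were each called in 1 or more other settings, given below. On a scale that corrects for gene length (CPM per kilobase, median of the 16 libraries), *Lyve1* stood at 1486, *Pdpn* at 56.6, *Reln* at 4.96, *Prox1* at 3.65, *Tbx1* at 3.46, *Ccl21a* at 1.46 and *Mmrn1* at 0.719. *Lyve1* ranked number 8 of all genes on this scale and number 5 by mean count. The lowest *Lyve1* library (1040) lay above the highest *Pdpn* library (88.7), while *Reln*, *Prox1*, *Tbx1* and *Mmrn1* overlapped in their ranges over libraries.

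Sequences are shown for the genes on which the description turns. *Ccl21a* is shown first because its counts depend on near-identical copies. The coding sequence of *Ccl21a* has 399 bases and differs from those of *Ccl21b*, *Ccl21d*, *Ccl21e* and *Ccl21f* at 2 positions, T84A and C194T, counted from the first coding base with the *Ccl21a* base first (99.5% identity). *Ccl21b* stands here for the copies. Both stretches were read from the GRCm39 reference, and the differing base is in capitals.
Ccl21a, coding bases 72 to 95: tgatggagggggTcaggactgctg
Ccl21b, coding bases 72 to 95: tgatggagggggAcaggactgctg
Ccl21a, coding bases 182 to 205: caatcctgttctCaccccggaagc
Ccl21b, coding bases 182 to 205: caatcctgttctTaccccggaagc
The highest count of *Ccl21b*, *Ccl21d* and *Ccl21f* in any library was 0 and that of *Ccl21e* was 1. Within the coding sequence, a read that covers neither position matches all copies equally, and the rest of the transcripts was not compared, so the *Ccl21a* counts are uncertain.

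The other sequences are the 250 bases before the deposited start of *Reln* and *Mmrn1*, the genes with the widest differences between isolations, and of *Foxc2*, a lymphatic valve transcription factor that rose with ligand. They were searched on both strands for GGCGCC, a sequence bound by SMAD1 and SMAD5, for GGAGCC, and for GTCTAGAC, the palindromic SMAD element. GGCGCC is in capitals. It occurs in 14.0% of 15671 such windows of tested genes, GGAGCC in 31.2% and GTCTAGAC in 0.217%. The windows were read from GRCm39, 5′ to 3′ on the strand of the gene.
Reln, chr5:22549701-22549950, minus strand: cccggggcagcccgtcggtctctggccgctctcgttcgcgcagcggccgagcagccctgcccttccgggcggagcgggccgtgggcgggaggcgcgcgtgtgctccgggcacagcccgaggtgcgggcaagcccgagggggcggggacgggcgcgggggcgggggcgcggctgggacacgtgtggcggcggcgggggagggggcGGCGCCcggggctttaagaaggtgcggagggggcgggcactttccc
Mmrn1, chr6:60901710-60901959, plus strand: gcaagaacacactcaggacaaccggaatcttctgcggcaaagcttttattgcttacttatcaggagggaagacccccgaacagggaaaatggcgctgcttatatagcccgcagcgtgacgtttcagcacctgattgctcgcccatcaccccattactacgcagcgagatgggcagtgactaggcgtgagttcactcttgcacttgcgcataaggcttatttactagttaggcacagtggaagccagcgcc
Foxc2, chr8:121842660-121842909, plus strand: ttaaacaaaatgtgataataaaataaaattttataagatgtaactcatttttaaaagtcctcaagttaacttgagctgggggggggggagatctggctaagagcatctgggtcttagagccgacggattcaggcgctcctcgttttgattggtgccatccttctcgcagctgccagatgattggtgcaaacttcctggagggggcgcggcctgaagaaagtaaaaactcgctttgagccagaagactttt
The *Reln* window held 1 GGCGCC, 37 CpG dinucleotides and 80.8% G and C, against a median of 13 CpG and 57.2% over all windows. The *Mmrn1* window (13 CpG, 52.4% G and C) and the *Foxc2* window (8 CpG, 44.8%) held none of the motifs. Of windows not printed here, that of *Prox1* also held 1 GGCGCC, and that of *Sox18* held 1 GGAGCC. Those of *Lyve1*, *Pdpn*, *Ccl21a* and *Tbx1* held none. All 250 bases of the *Prox1* window lie in annotated exons of *Prox1*, which the annotation extends to position 189904637. That window is thus upstream of the deposited start only and not of the annotated gene. A match describes letters and not a bound site.

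*Prox1* (ENSMUSG00000010175) encodes the homeodomain factor that sets lymphatic identity. It lies on the minus strand of chromosome 1 from 189850232 to 189902911 (GRCm39), has 5 exons in its canonical transcript, and overlaps the antisense RNA Prox1os. Values below are CPM after TMM normalisation, in the order of isolations 1 to 4. *Prox1* stood at 50.8, 60.7, 17.5 and 6.34 in Ctrl cells with PBS and at 50.4, 51.8, 11.5 and 7.05 in Ctrl cells with sENG(M):BMP9. It stood at 43.7, 49.8, 14.4 and 6.55 in KO cells with PBS and at 49.7, 66.1, 17.4 and 6.41 in KO cells with pro:BMP9. In each group, isolations 1 and 2 were high, isolation 3 was lower and isolation 4 lowest, and the groups overlapped almost entirely. The isolation means were 48.6, 57.1, 15.2 and 6.59 CPM, a ratio of 8.67 between highest and lowest. The libraries of isolations 1 and 2 overlapped, and those of isolations 3 and 4 overlapped neither with these nor with each other. In bulk samples, fewer cells of a type and less RNA per cell cannot be told apart, here and for every gene below.

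*Tbx1* (ENSMUSG00000009097; chromosome 16, 18399729 to 18409421, minus strand, 7 exons) encodes a T-box factor needed for lymphatic growth. It stood at 11.7, 12.0, 12.9 and 2.84 CPM in Ctrl cells with PBS and at 18.2, 19.7, 12.3 and 2.72 with sENG(M):BMP9. In KO cells it stood at 10.1, 15.4, 9.56 and 3.24 CPM with PBS and at 12.5, 15.4, 12.3 and 2.75 with pro:BMP9. Isolation 4 was low in every group, and the other isolations overlapped. The ratio of the highest to the lowest isolation mean was 5.42, from 15.6 to 2.89 CPM.

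*Lyve1* (ENSMUSG00000030787; chromosome 7, 110449814 to 110462446, minus strand, 6 exons) encodes a membrane receptor for hyaluronan. It was found at 3899, 5316, 3077 and 4490 CPM in Ctrl cells with PBS and at 3786, 5017, 3036 and 4047 with sENG(M):BMP9. The KO cells held 4461, 5712, 3214 and 4428 CPM with PBS and 4528, 5487, 3104 and 4249 with pro:BMP9. *Lyve1* was thus high in all 16 libraries, with 47848 to 87323 counts, also in isolation 4, where *Prox1* had 98 to 122. Isolation 2 was above all others and isolation 3 below all others, while isolations 1 and 4 overlapped. The ratio of 1.73 between highest and lowest isolation mean exceeded that of 72.7% of tested genes. Some macrophages also carry *Lyve1*. The summed macrophage and leukocyte level was 53.4 to 65.1 CPM per kilobase in isolation 1 and 78.7 to 95.2 in isolation 2. It was 43.3 to 47.9 in isolation 3 and 42.0 to 47.8 in isolation 4. Most of this sum came from *Cd68* and *Cd14* (medians 26.9 and 20.1 CPM per kilobase), while *Ptprc* and *Adgre1* were near 0. The part of macrophages in the *Lyve1* counts was not tested.

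*Pdpn* (ENSMUSG00000028583; chromosome 4, 142994001 to 143026134, minus strand, 5 exons) encodes podoplanin, a mucin-like membrane protein that binds CLEC2 on platelets. Its level was 148, 161, 72.1 and 13.4 CPM in Ctrl cells with PBS and 144, 159, 74.5 and 13.0 with sENG(M):BMP9. The level in KO cells was 140, 153, 56.6 and 13.1 CPM with PBS and 131, 158, 54.2 and 12.8 with pro:BMP9. The isolations stood in the order 2, 1, 3 and 4 with no overlap between neighbours, and the ratio of highest to lowest mean was 12.1. Podoplanin is also made by mesothelium and fibroblasts. The summed mesothelial level was 130 to 202 CPM per kilobase in isolation 1, 5.08 to 6.01 in isolation 2, 103 to 117 in isolation 3 and 19.1 to 23.4 in isolation 4, and the part of these cells in the *Pdpn* counts was not tested.

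*Reln* (ENSMUSG00000042453; chromosome 5, 22089452 to 22549700, minus strand, 64 exons) encodes reelin, a large secreted glycoprotein best known from neuronal migration and also released by lymphatic endothelium. Its span holds 3 other annotated genes on its own strand and 7 on the other. In the Ctrl cells it stood at 282, 355, 26.2 and 7.79 CPM with PBS and at 285, 284, 25.9 and 8.03 with sENG(M):BMP9. In the KO cells it stood at 224, 251, 23.0 and 6.37 CPM with PBS and at 209, 290, 20.4 and 8.83 with pro:BMP9. Isolations 1 and 2 overlapped and lay far above isolation 3, which lay above isolation 4. The isolation means of 250, 295, 23.9 and 7.76 CPM gave a ratio of 38.0, larger than that of 99.9% of tested genes. Of the reelin partners, the receptor genes *Vldlr* and *Lrp8* were read in every library (2268 to 4010 and 201 to 553 counts), and the adaptor gene *Dab1* was at 0 in all 16.

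*Mmrn1* (ENSMUSG00000054641; chromosome 6, 60901960 to 60966362, plus strand, 8 exons) encodes multimerin 1, a secreted protein of platelets and endothelium. Its raw counts were 1000, 2, 198 and 0 in Ctrl cells with PBS and 1057, 3, 214 and 0 with sENG(M):BMP9. The raw counts in KO cells were 1105, 2, 137 and 0 with PBS and 958, 3, 129 and 0 with pro:BMP9. Isolation 1 was high, isolation 3 was intermediate, and isolations 2 and 4 lay at or under 3 counts in every library. On the CPM scale the libraries of isolation 1 lay at 62.8 to 70.1, and the means of isolations 2, 3 and 4 were 0.163, 10.2 and 0. Isolation 1 was at least 351-fold higher than isolation 4, with a floor of 3 counts per library in isolation 4. The mesothelial sums given for *Pdpn* were likewise higher in isolations 1 and 3 than in isolations 2 and 4. The fibroblast and mural sum was 108 to 177 in isolation 1, 17.8 to 20.1 in isolation 2, 120 to 134 in isolation 3 and 66.1 to 102 in isolation 4. The part of either cell type in the *Mmrn1* counts was not tested.

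*Ccl21a* (ENSMUSG00000094686; chromosome 4, 42772860 to 42773993, minus strand, 4 exons) encodes a form of the chemokine CCL21. It had 10, 11, 44 and 34 counts in Ctrl cells with PBS and 18, 5, 27 and 29 with sENG(M):BMP9. It had 14, 3, 34 and 25 counts in KO cells with PBS and 10, 8, 31 and 33 with pro:BMP9. Unlike *Prox1* and *Reln*, isolations 3 and 4 were higher than isolations 1 and 2, with overlap within each pair. The isolation means lay between 0.439 and 2.07 CPM, a ratio of 4.70. *Ccr7*, the receptor of CCL21, had at most 6 counts and was not tested.

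**Figure D1:**
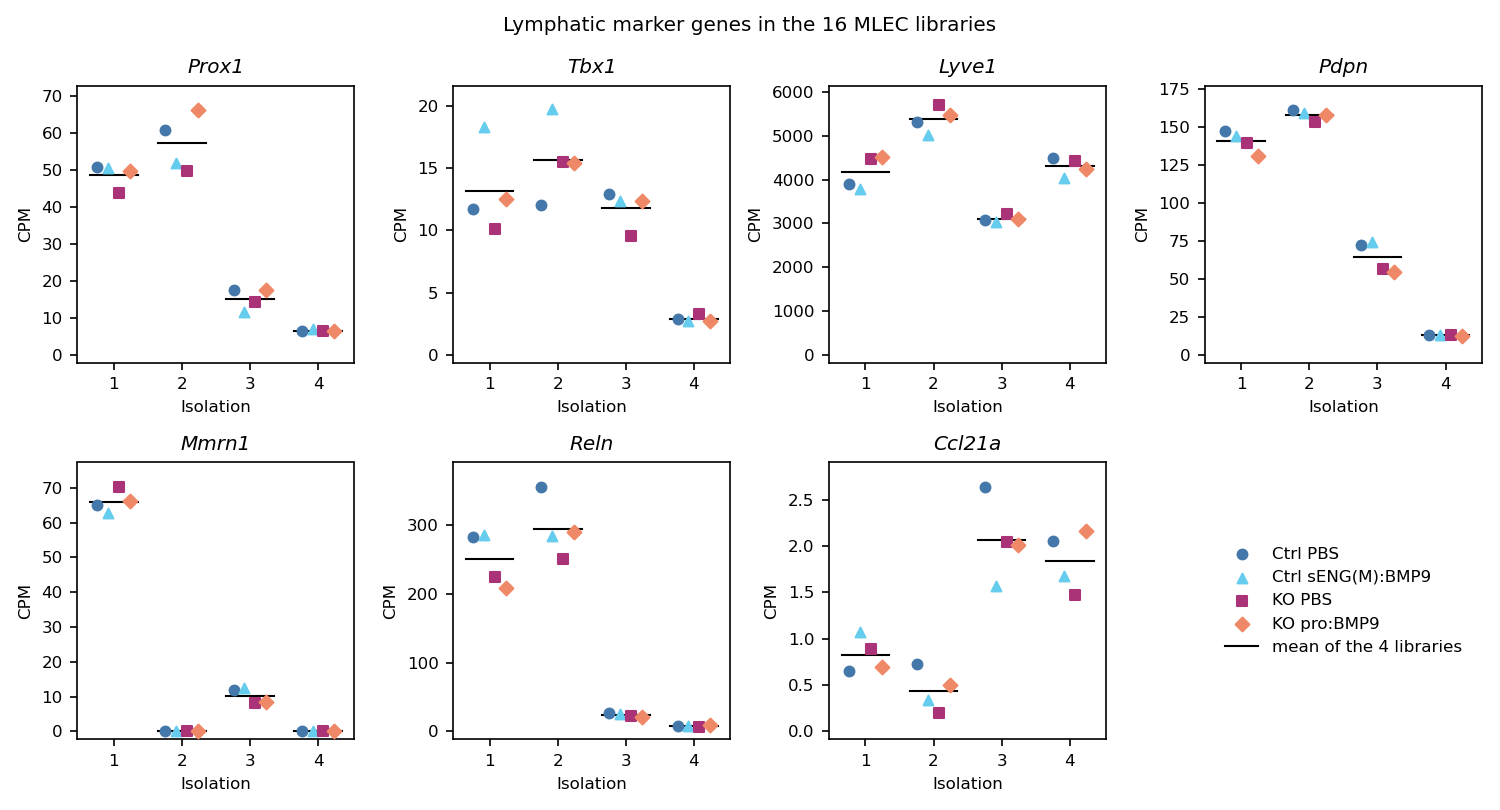
CPM (linear axes) of each gene against isolation, with 1 point per library, symbols for the 4 groups and a line at the mean of an isolation. *Prox1*, *Pdpn* and *Reln* step down from isolations 1 and 2 to isolation 4, *Mmrn1* is high in isolation 1, *Lyve1* stays between 3036 and 5712 CPM, and the 4 groups of an isolation lie close together.

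Across the set, 6 of the 7 genes had a ratio of at least 4 between the highest and lowest isolation mean with no overlap between those libraries, against 6.71% of all tested genes, and *Lyve1* was the exception. The median ratio was 8.67 for the 7 genes and 1.37 for all tested genes. The rule was also met by 6 of 6 mesothelial (median ratio 45.5) and 9 of 12 fibroblast and mural markers (9.09). It was met by 3 of 5 macrophage and leukocyte, 2 of 5 alveolar epithelial and 2 of 13 endothelial markers, and by 0 of 8 BMP response genes. Each isolation holds libraries with and without ligand, so genes that change strongly with ligand can hardly meet the rule. *Hey1*, for instance, had a ratio of 5.57 with overlapping libraries, so the result for the BMP response genes does not show that isolations were alike. A wide range between isolations is thus not particular to the 7 genes. These ratios are descriptions: the 4 libraries of an isolation are the same cells under different treatments, so no test was made, and the genes were listed with such results known. Isolations 1 and 2 also had the higher endothelial sums (1436 to 1615 and 1869 to 1903 CPM per kilobase, against 849 to 913 in isolation 3 and 1250 to 1333 in isolation 4). The sums of the macrophage and leukocyte list (53.4 to 95.2 in isolations 1 and 2, 42.0 to 47.9 in isolations 3 and 4) and of the alveolar epithelial list (89.4 to 134 against 41.7 to 58.4) were also higher there. The first sum came mostly from *Cd68* and *Cd14* and the second mostly from *Krt18*. Single genes differed: *Cd68*, *Cd14*, *Fcer1g*, *Krt18*, *Ager* and *Hopx* were highest in isolation 2 and *Krt8* in isolation 1. By contrast, *Csf1r* and *Cdh1* were highest in isolation 3 and *Lyz2* in isolation 4. The part of these lists in the results was not tested.

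Of the 29 tested genes in the list of other lymphatic genes, 11 met the ratio rule, and the median ratio was 2.76. Of these 11 genes, 9 were highest in isolation 1 or 2, and 2 were highest in isolation 3. The latter were the lymphatic growth factor genes *Vegfc* (11.5, 6.16, 37.2 and 34.5 CPM in isolations 1 to 4) and *Vegfd* (13.5, 5.57, 31.8 and 15.3 CPM). *Nts*, which encodes the peptide neurotensin, stood at 423, 610, 24.1 and 12.4 CPM in isolations 1 to 4, a ratio of 49.0 and in the same order as *Reln*. *Ackr2*, a scavenger receptor for chemokines, stood at 36.0, 43.7, 5.04 and 2.51 CPM. *Sema3d*, a secreted guidance factor, stood at 13.1, 9.60, 4.49 and 0.766 CPM. The venous and lymphatic factor *Nr2f2* differed little, with a ratio of 1.15. Among the partners of the 7 genes, 1 of 13 met the rule, the hyaluronan synthase gene *Has1* (ratio 13.6).

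**Figure D2:**
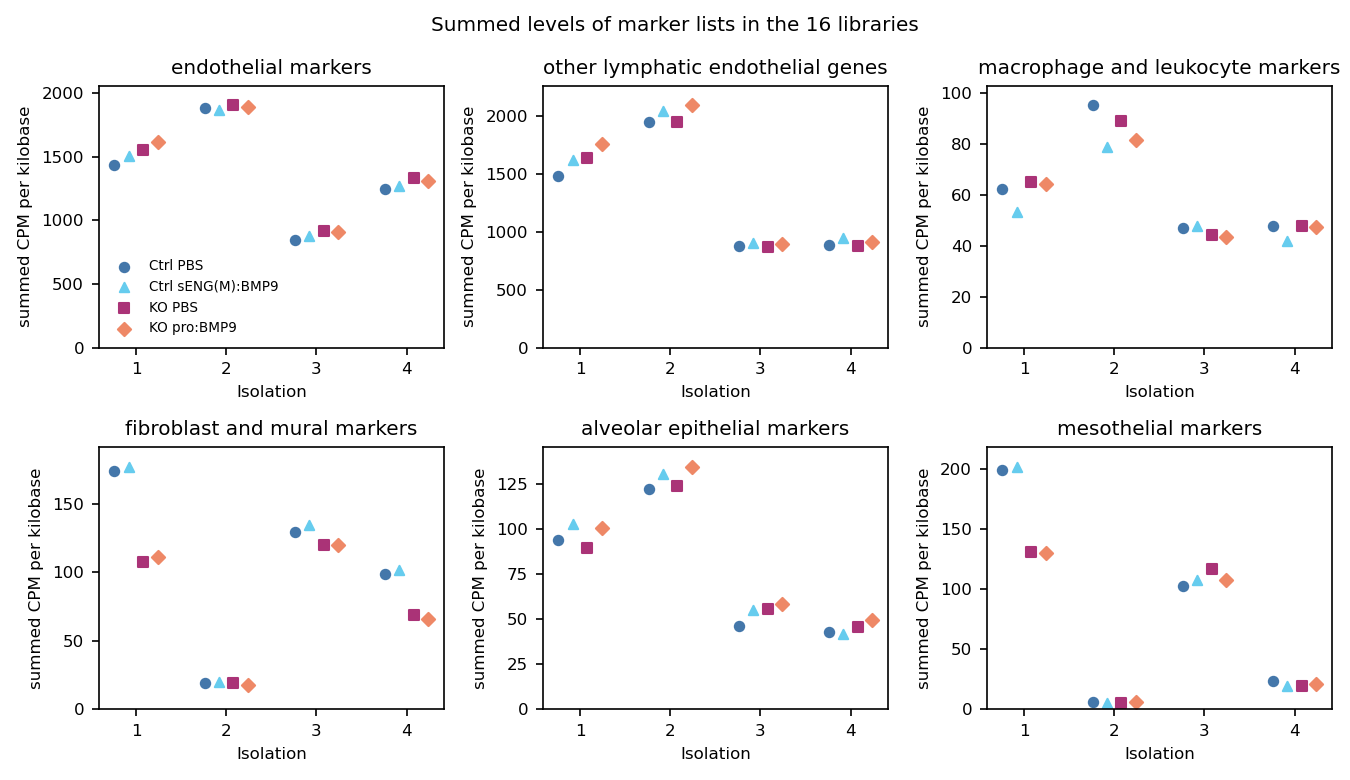
Summed CPM per kilobase of 6 marker lists (linear axes from 0) against isolation, with 1 point per library and symbols for the 4 groups. The other lymphatic genes sum to 1483 to 2094 in isolations 1 and 2 and to 870 to 945 in isolations 3 and 4, and the mesothelial markers are highest in isolations 1 and 3.

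Genes with the most similar pattern were sought by Pearson correlation of log2 CPM over the 16 libraries, which share 4 isolations, so that each coefficient mostly repeats the isolation order. Those most like *Prox1* were *Susd4* (0.992), *Atp9a* (0.990) and *Pcsk6* (0.988). *Reln* was followed most closely by *Khdrbs3* (0.995), *Pcsk6* (0.994) and *Fam174b* (0.994). For *Pdpn* they were *Add3* (0.988), *Rnase4* (0.988) and *Ctnnal1* (0.987), and for *Lyve1* they were *Tmem252* (0.973), *Ankrd46* (0.971) and *Pkn3* (0.970). *Mmrn1* was closest to *Gpc3* (0.981), *Atp1b1* (0.978) and *Map3k5* (0.968). *Tbx1* was closest to *Pard6g* (0.975), *Thbs2* (0.975) and *Lgals1* (0.963), and *Ccl21a* to *Sox5* (0.946), *Aff2* (0.941) and *Ces2f* (0.939). Within the set, *Prox1* and *Reln* correlated at 0.987 over libraries and at 0.114 once the mean of each isolation was removed. *Prox1* and *Lyve1* correlated at 0.435.

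The response to ligand was examined next, first in Ctrl cells given sENG(M):BMP9. No gene of the 7 was called (0 of 7, against 9.69% of tested genes), by edgeR's quasi-likelihood test with Benjamini-Hochberg adjustment over all 15693 genes. DESeq2 called none either. *Tbx1* had the largest value, a log2 fold change of 0.37 ± 0.14 (SE; adjusted p = 0.108), with 0.64 and 0.71 in isolations 1 and 2 and -0.06 in both isolations 3 and 4. Without isolation 3 it was 0.56 (adjusted p = 0.0326), and with no filter on low counts 0.38 (adjusted p = 0.0108), so this call turns on the setting. *Prox1* had -0.18 ± 0.09 (adjusted p = 0.274) with a 95% interval from -0.37 to 0.01. *Lyve1* had -0.07 ± 0.04 (adjusted p = 0.314) and was lower in 4 of 4 isolations. *Reln* had -0.10, *Pdpn* -0.01, *Mmrn1* 0.00 and *Ccl21a* -0.35 with an interval from -0.93 to 0.23. The median of the 7 genes was -0.07, and that of all tested genes -0.01.

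In KO cells given pro:BMP9, 0 of 7 genes were called, against 5.59% of tested genes, and DESeq2 called none. *Prox1* had the lowest adjusted p of the 7, with a log2 fold change of 0.26 ± 0.09 (SE; adjusted p = 0.129) and higher values in 3 of 4 isolations. With no filter on low counts its adjusted p was 0.0224, and in a fit of the 8 KO libraries alone it was 0.0380. *Tbx1* had 0.15, *Reln* 0.06, *Lyve1* -0.04, *Pdpn* -0.04, *Mmrn1* -0.04 and *Ccl21a* 0.23. The *Prox1* responses differed in sign between Ctrl and KO cells, and the test of the difference gave 0.44 ± 0.13 (SE; unadjusted p = 0.00271, adjusted p = 1.00). With no filter on low counts the adjusted p of *Prox1* in this test was 0.0308. In that test 0 of 7 genes and 0% of tested genes were called, with 565 genes at an unadjusted p under 0.05 and 0 calls by DESeq2.

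The same libraries did show a ligand response in other genes. The 8 BMP response genes rose in both cell types (8 of 8), with a median log2 fold change of 2.75 in Ctrl and 2.70 in KO cells. Of the other lymphatic genes, 5 of 29 rose and 5 fell in Ctrl cells, against 5.86% and 3.83% of tested genes, and 4 rose and 2 fell in KO cells, against 3.68% and 1.92%. *Foxc2*, a factor of lymphatic valves, rose by 3.19 in Ctrl and 2.77 in KO cells, and *Sox18*, which acts upstream of *Prox1*, by 2.62 and 2.35 (log2, adjusted p at most 6.48e-12 by edgeR for both). *Gata2*, another valve factor, rose by 0.90 and 0.85 (log2). *Nr2f2* fell by 0.46 and 0.35 and the gap junction gene *Gja1* by 0.36 and 0.29 (log2), and *Maf* fell by 0.27 in Ctrl cells. *Piezo1*, a mechanically gated channel, rose by 0.13 and 0.12 (log2). Among the partners, *Hhex*, a homeobox factor that regulates *Prox1* in development, fell by 0.49 in Ctrl (adjusted p = 0.000504) and by 0.36 in KO cells (adjusted p = 0.0127 by edgeR).

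**Figure D3:**
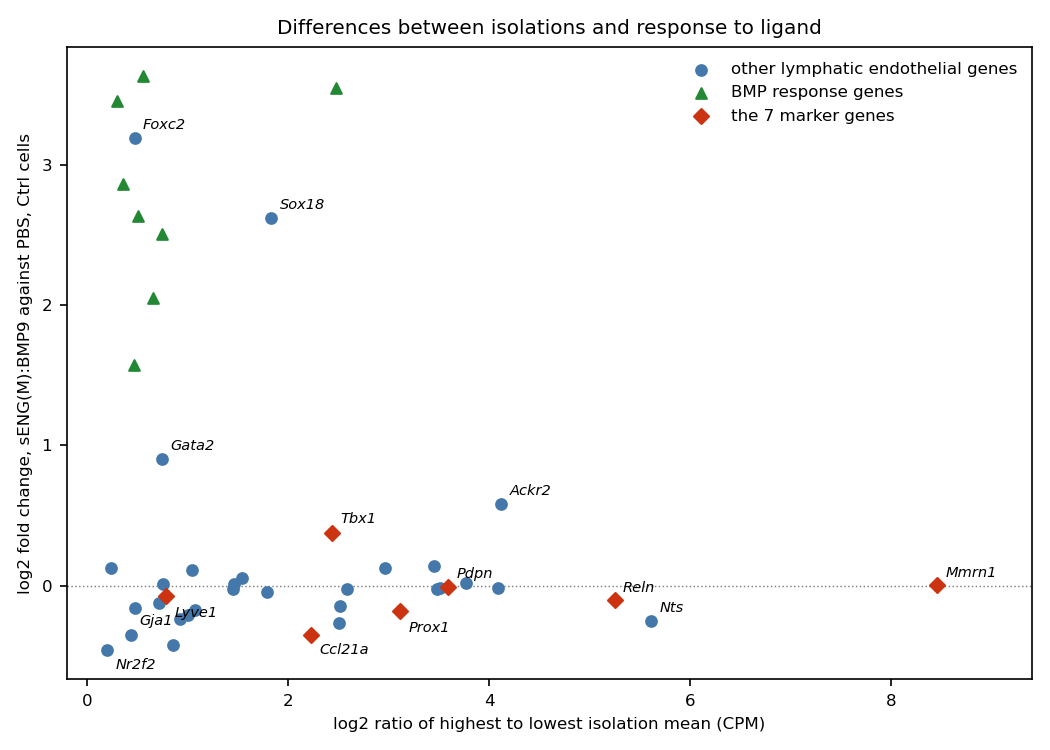
Log2 fold change with sENG(M):BMP9 in Ctrl cells against the log2 ratio of highest to lowest isolation mean, for the 7 marker genes (diamonds), 29 other lymphatic genes (circles) and 8 BMP response genes (triangles), with *Mmrn1* at its lower bound. The marker genes spread along the horizontal axis and stay between -0.35 and 0.37 on the vertical one, whereas *Foxc2* (3.19) and *Sox18* (2.62) stand high with the BMP response genes.

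KO cells were then compared with Ctrl cells. In PBS, 0 of 7 genes were called, against 0.0191% of tested genes. At an unadjusted p under 0.05 by edgeR were 4 of 7, against 6.82% of tested genes. Of these, *Reln*, *Prox1* and *Pdpn* were lower and *Lyve1* higher in KO cells. The median log2 fold change was -0.14 for the 7 genes and -0.0009 for all tested genes. *Reln* was lower in KO cells in 4 of 4 isolations, with a log2 fold change of -0.36 ± 0.08 (SE; 95% interval from -0.52 to -0.20, adjusted p = 0.244). The steps named in the paper, quantile normalisation, ComBat and DESeq2, gave *Reln* an adjusted p of 0.0121. The paper names *Reln* among genes significantly lower in KO cells with PBS, with minimal fold changes. Rerun here, the same steps called 141 genes over all in PBS and 503 between genotypes with ligand. These counts are far above those in the paper, so the rerun did not reproduce its gene lists. Over the alternative settings the log2 fold change of *Reln* in PBS lay between -0.41 and -0.28. All of these are smaller in size than the paper gives. By edgeR the adjusted p of *Reln* was 0.0391 without isolation 4 and 1.5e-08 with no filter on low counts. *Reln* passes the filter, so its counts were the same without it, while the calls over all genes rose from 3 to 204. *Prox1* had -0.22 (adjusted p = 0.640), *Pdpn* -0.14 and lower values in 4 of 4 isolations (adjusted p = 0.703), and *Lyve1* 0.08 (adjusted p = 0.710). The *Pdpn* values were -0.08, -0.07, -0.35 and -0.03 in isolations 1 to 4. *Tbx1* had -0.05, *Mmrn1* -0.11 and *Ccl21a* -0.41. DESeq2 with the isolation block called none of the 7. The fibroblast gene *Dcn* was lower in KO cells by the same test (-0.61, adjusted p = 0.0160). In isolations 1 to 4, the fibroblast and mural sum with PBS was 174, 19.0, 130 and 98.9 CPM per kilobase in Ctrl cells. In KO cells it was 108, 19.3, 120 and 68.6. The mesothelial sum was 199, 5.98, 103 and 23.4 in Ctrl and 131, 5.08, 117 and 19.1 in KO cells. The part of these cells in the values of the 7 genes was not tested.

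With ligand, 0 of 7 genes were called between KO and Ctrl cells, against 0.255% of tested genes (0.0892% higher and 0.166% lower), and DESeq2 called none. An unadjusted p under 0.05 by edgeR was found for 4 of 7, against 9.27% of tested genes. Of these, *Lyve1* and *Prox1* were higher and *Reln* and *Pdpn* lower in KO cells. The median log2 fold change was -0.16 for the 7 genes and 0.0007 for all tested genes. *Lyve1* was higher in KO cells in 4 of 4 isolations by 0.12 ± 0.04 (log2, SE; adjusted p = 0.204). *Reln* had -0.20 (adjusted p = 0.380), with 2 of 4 isolations lower, and *Pdpn* had -0.17 with 4 of 4 lower (adjusted p = 0.354). The *Pdpn* values were -0.14, -0.01, -0.46 and -0.03 in isolations 1 to 4, so that isolation 3 was farthest from 0. In the same comparison 2 of 12 fibroblast and mural markers were lower in KO cells, *Dcn* (-0.61, adjusted p = 0.00835) and *Pdgfrb* (-0.29, adjusted p = 0.0289), and the median of that list was -0.30. Its sum in isolations 1 to 4 was 177, 20.1, 134 and 102 CPM per kilobase in Ctrl and 111, 17.8, 120 and 66.1 in KO cells. The part of these cells here was not tested. With no filter on low counts, *Lyve1* (adjusted p = 0.000136) and *Reln* (adjusted p = 0.0172) were called by edgeR. Both pass the filter, so their counts were the same without it, while the calls over all genes rose from 40 to 517. *Prox1* had 0.21, *Tbx1* -0.27, *Mmrn1* -0.16 and *Ccl21a* 0.17. Of the 29 other lymphatic genes, *Foxc2* was called here and was lower in KO cells (log2 fold change -0.42, adjusted p = 0.0306). Over the 4 comparisons, all 28 intervals of the 7 genes lay within a 2-fold change in either direction, and 18 of them included 0.

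**Figure D4:**
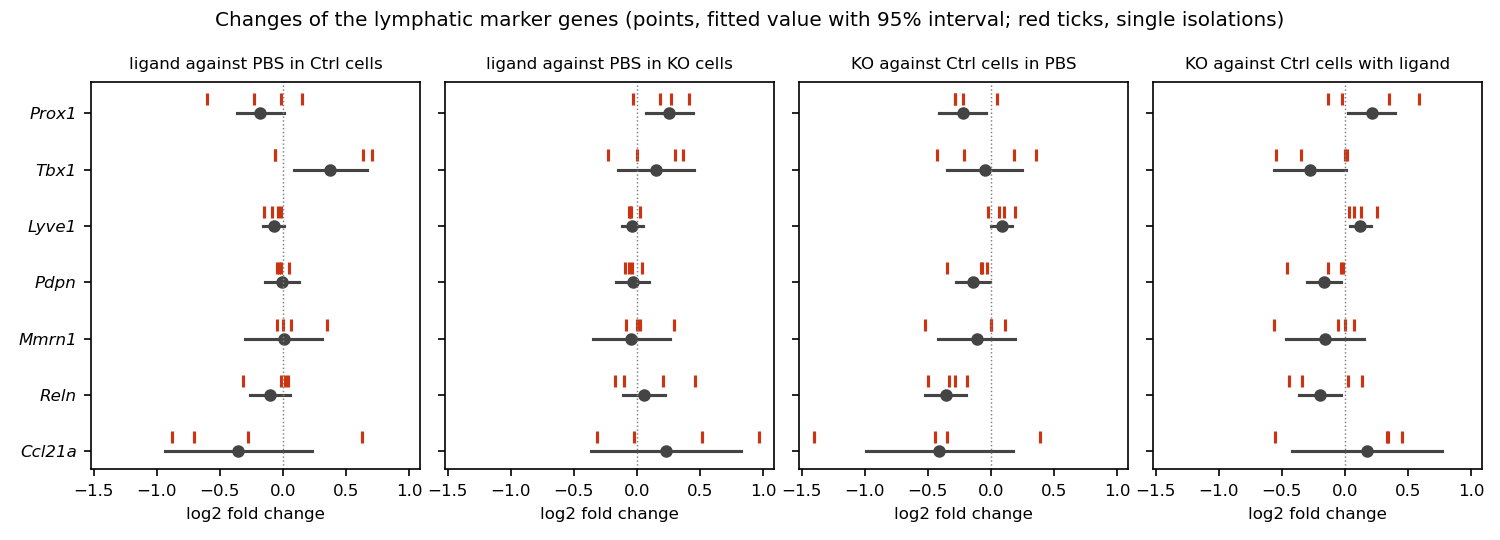
Log2 fold change of the 7 genes in 4 comparisons, with the fitted value (point), its 95% interval (bar) and the single isolations (red ticks). All 28 bars lie within a 2-fold change, the *Ccl21a* bars are widest, and *Reln* is farthest below 0 in KO cells with PBS among the genes with narrow bars.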

How the data were processed

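The deposited values were raw read counts per gene, which the authors had not normalised. Per the submitters' processing notes, HISAT2 2.0.5, featureCounts 1.5.0-p3 and GRCm39 were used, and DESeq2 1.26.0 later. Libraries were stranded, but the strand setting of the counting is not given in the sources used here, so reads of genes with antisense partners (*Prox1*, *Reln*, *Mmrn1*, *Ccl21a*, *Tbx1*) may be mixed. The authors' steps after counting were quantile normalisation, ComBat and DESeq2.

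Counts were tested in R 4.3.3 with edgeR 4.0.16 (filterByExpr with a minimum count of 10 and a total of 15, TMM, quasi-likelihood test, all 16 libraries, isolation as a block, adjusted p under 0.05). The replicate number in the labels was taken as the isolation: same-numbered libraries deviated together from their group means (mean r = 0.757 over 24 pairs, lowest 0.670). The 72 pairs with different numbers had a mean r of -0.251 and reached at most 0.324. Deviations from a group mean sum to 0, which by itself pulls this second mean below 0. Log2 values of single isolations used a prior count of 2, and counts of 0 a floor of 3 counts, which covers counting error only. Libraries of the same group all differed by more than sampling noise. Whether isolations came from different animals is not given. With isolation as a block, p-values measure the spread left between these samples once the level of each isolation is taken out. They do not measure the spread between isolations. The procedure was also run on counts simulated from its own model. Such a run checks the code and not whether the model holds for these data. Alternatives used DESeq2 1.42.0, sva 3.50.0, RLE size factors, other filters and samples left out. Sequences and exons came from a GENCODE annotation of GRCm39; 50265 of 50312 matched gene names overlapped the deposited positions. The genes and lists were chosen with earlier results of these data known. From the lists, called genes (the 3 largest in each direction where more than 6 were called) and the 3 widest isolation ranges were eligible to be named; *Eng*, *Nr2f2* in the isolation comparison the partners of reelin and CCL21 *Vegfc*, *Vegfd* and the cell type markers given by their counts were added after their values were seen.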

Additional observations from a re-analysis of the deposited data

Results flagged for a closer look

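In a group of 4 libraries, a value was noted when its gap to the nearest other library, divided by the range of the group, exceeded Dixon's 95% critical value. Of 28 groups (7 genes in 4 groups), 3 met this. Chance gives about 1 in 20 for independent groups, but these hold the same 4 isolations and are not independent: for *Mmrn1* the share was 0.802 to 0.883 in the 4 groups. *Mmrn1* in KO cells with PBS had a share of 0.883 and in KO cells with pro:BMP9 a share of 0.873, both from the high library of isolation 1 (70.1 and 66.1 CPM). *Tbx1* in Ctrl cells with PBS had a share of 0.881, from the low library of isolation 4 (2.84 CPM, against 11.7 to 12.9 in the others).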

How the results depend on the processing

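Of 368 recomputed fold changes of the 7 genes, 342 kept their direction and their side of the threshold, 10 gained a call and 16 changed sign, mostly at values near 0. With no replicate block, 0 genes were called in each comparison, and *Mmrn1* became -0.0268 (ligand in Ctrl cells) and 0.0278 (KO against Ctrl cells in PBS); over all genes the calls fell from 1521 to 167, 878 to 91, 3 to 1 and 40 to 1. With no filter on low counts, 1 gene was called with ligand in Ctrl cells, 1 in KO cells, 1 between genotypes in PBS, 2 with ligand and 1 in the difference (*Prox1*), and over all genes 204 were called in PBS, 517 with ligand and 52 in the difference. All 7 genes pass the filter, so their counts were the same in this setting. Quantile normalisation, ComBat and DESeq2 called 1 gene in PBS, gave 0.0534 for *Lyve1* and 0.0249 for *Mmrn1* with ligand in KO cells, and called 1396 genes with ligand in KO cells, 141 in PBS, 503 with ligand between genotypes and 14 in the difference. DESeq2 with the block called 7 and 108 genes between genotypes in PBS and with ligand. The 8 libraries of a comparison alone gave 1 call with ligand in KO cells, -0.0017 for *Mmrn1* with ligand in Ctrl cells and 1 gene over all in PBS. Requiring 10 counts in every library left 5 of the 7 genes.

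Leaving out 1 isolation gave 0 to 1 calls with ligand in Ctrl cells and 0 to 1 between genotypes in PBS. *Mmrn1* ranged from -0.0405 to 0.0911 and -0.0776 to 0.0526 with ligand in Ctrl and KO cells, and from -0.52 to 0.11 in PBS and -0.56 to 0.0712 with ligand between genotypes. *Reln* ranged from -0.17 to 0.00979 and -0.0367 to 0.13 with ligand and from -0.0465 to 0.30 in the difference, *Tbx1* from -0.22 to 0.11 in PBS, and *Pdpn* from -0.0738 to 0.0023 in the difference. Over all genes, the calls without 1 isolation ranged from 1 to 69 in PBS and 6 to 175 with ligand between genotypes; both highest counts came without isolation 4. The log2 isolation range of *Lyve1* was 0.69 with library totals (0.79 with TMM) and that of *Tbx1* 2.17 in PBS libraries alone (2.44 in all). The cause was not tested in any of these. Depth limits *Ccl21a* (3 to 44 counts) and *Mmrn1* in isolations 2 and 4.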
